A study of Mus musculus with 16 samples.

Results

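The effect of losing complement component C3 was compared between macrophages and monocytes sorted from the same tumours. For each gene the knockout-minus-wild-type difference in monocytes was subtracted from that in macrophages, with the mouse as a block. A positive difference of effects means that the gene rose more, or fell less, in macrophages than in monocytes when C3 was lost. All 16 of the 16 libraries entered the comparison. They came from 8 C57BL/6J mice, 4 C3 wild type (mice 1 to 4) and 4 C3 knockout (mice 6 to 9), and each mouse gave 1 macrophage and 1 monocyte library. MN/MCA1 sarcoma cells, a transplantable mouse fibrosarcoma line, were injected under the skin of all 8 mice, and tumours were taken 21 days later. Both sorted populations were CD45+ CD11b+ Ly6G- CD11c-. Macrophages were F4/80+ and Ly6C-, monocytes F4/80- and Ly6C+. The knockout was of the host, so both cell types carried it, and the same tumour line was used in both genotypes. The labels state neither age nor litter. Every wild-type library carries a lower number than every knockout library, so any effect of handling order cannot be told apart from genotype.

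C3 is the protein on which the classical, lectin and alternative complement pathways meet. Its cleavage releases C3a, a soluble ligand of the receptor encoded by C3ar1, and C3b, which tags surfaces. Products of the further cleavage of bound C3b are read by receptors such as the integrins CD11b and CD11c. Monocytes enter tumours from the blood, and many of them mature there into macrophages, losing Ly6C and gaining F4/80. A gene can therefore answer to the loss of C3 in one of these stages and not in the other.

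Values are given as normalized reads, the reads recovered from the deposited values divided by the size factor of the library, with mean ± SD of n = 4 mice per group. Effects and their differences are on the deposited log2 scale, a regularized logarithm that draws low values together. The 16 libraries held 18689359 to 29049322 recovered reads and 17850 to 19654 detected genes. On average 16 of 19 macrophage genes found in the files were higher in macrophages, 11 of them without overlap between the libraries. All 18 genes of the classical monocyte list were higher in monocytes, 15 without overlap. Summed normalized reads of the neutrophil list ran from 1556 to 2108 in macrophages and from 7066 to 16644 in monocytes, while Ly6g, its defining gene, averaged 1.65 reads or fewer in every group. The monocyte libraries of knockout mice 7 and 8 stood apart. Ngp, a neutrophil granule gene, was at 4484 and 3262 normalized reads there and under 4 in every other library. Ltf and Camp, which encode lactoferrin and cathelicidin, were high in the same libraries (1733 and 731.3 for Ltf, 632.7 and 1364 for Camp) and at most 17.4 and 2.57 elsewhere. Counts were therefore also taken without mice 7 and 8. Summed red blood cell markers lay between 1451 and 3592 in wild-type monocytes, 309.7 and 1279 in knockout monocytes, 430.3 and 1284 in wild-type macrophages, and 146.1 and 243.3 in knockout macrophages. Summed fibroblast and sarcoma markers spanned 5041 to 10589, 1727 to 8335, 1352 to 3725 and 308.1 to 1513 in the same order. The part of these transcripts in the differences below was not tested.

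The response to C3 loss differed between the cell types in 251 of 13134 genes tested (1.91%; limma, Benjamini-Hochberg adjusted p under 0.05). Of these, 165 had the higher effect in macrophages (1.26% of genes tested) and 86 the lower (0.655%). Monocytes carried the larger effect, by absolute size, in 157 of the 251 genes and macrophages in 94. The most common form was a fall in monocytes that was larger than any change in macrophages, with 107 genes. A rise that was larger in macrophages gave 58 genes, a rise that was larger in monocytes 50, and a fall that was larger in macrophages 36. These counts of larger effects and of forms cover called genes only. The matching shares over all genes tested were not taken. The differences were mostly modest: the median absolute difference was 0.56 on the log2 scale, and 45 genes reached 1. In 249 of the 251 genes, knockout and wild-type mice had macrophage-minus-monocyte values with no overlap, against 8.27% of all genes tested. The genes were called on these same values, so this separation follows from the choice of called genes and is no separate support. Since the design cannot go below p = 0.0286 in an exact two-sided permutation of 4 against 4 mice, the adjusted p-values rest on the spread that limma shares across genes. Without mice 7 and 8 the count was 190, of which 107 were higher and 83 lower. With 1 mouse left out it ran from 119 to 262 and fell most without wild-type mouse 1, 2 or 4 or knockout mouse 9 (144, 142, 119 and 154); the count of higher genes was also moved by wild-type mouse 3 (108 without it). Without the mouse term it was 81.

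**Figure D1:**
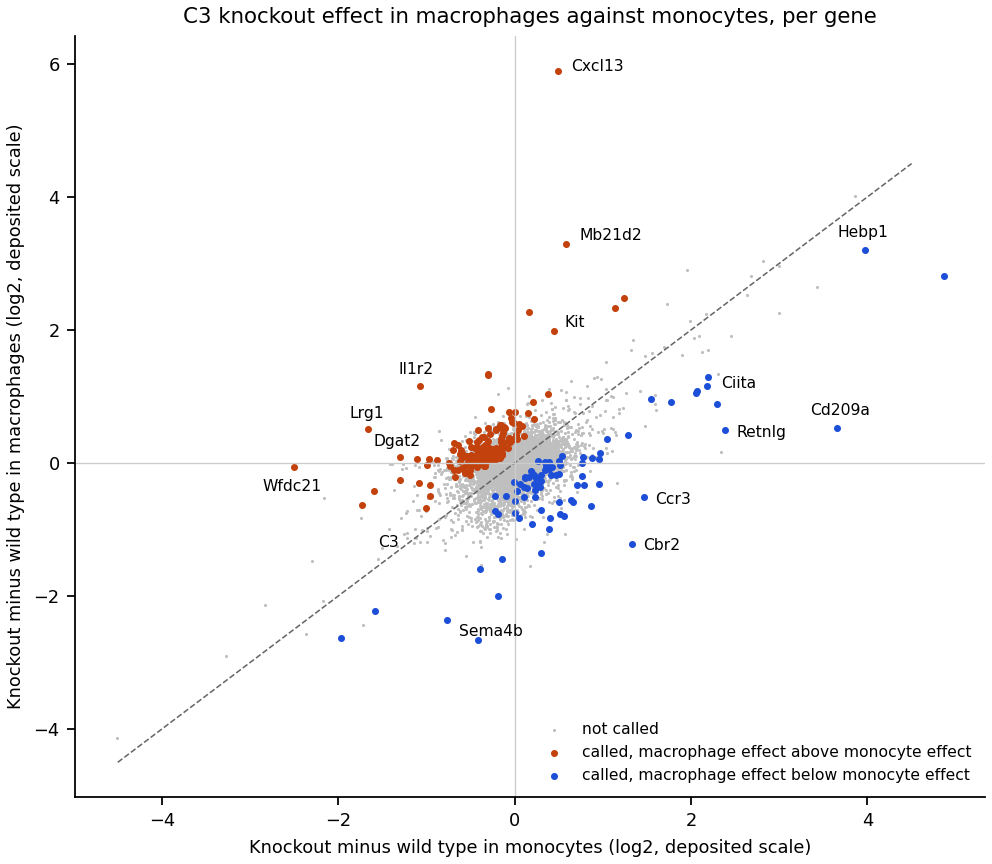
Knockout minus wild type in monocytes (x axis) against the same in macrophages (y axis), both in log2 units of the deposited scale, for the 13134 genes tested; the dashed line marks equal effects. Orange points (165 genes) lie above the line and blue points (86 genes) below it, and Cxcl13 stands farthest from it with a difference of 5.41.

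The differences changed how far apart the cell types were. The gap between macrophages and monocytes was smaller in knockout than in wild type for 138 of the 251 genes and larger for 113. In 52 genes the order of the cell types turned, and in 28 of these every wild-type mouse showed one order and every knockout mouse the other. Among the 165 genes with the higher effect in macrophages, 117 had been lower in wild-type macrophages than in wild-type monocytes. The wild-type gap is part of the difference that was tested, so these gap counts follow in part from the choice of called genes. Their shares over all genes tested were not taken. Both effects had opposite signs in 171 of the 251 genes (68.13%), against 38.02% of all genes tested. A difference of effects is larger when the signs are opposite, so a high share follows in part from the choice of called genes. Opposite changes that stood clear of the spread between mice in both cell types were rare. Genotypes did not overlap in either cell type and moved in opposite directions in 9 called genes, against 0.122% of genes tested. For 25 called genes the genotypes stood apart in both cell types in the same direction (2.97% of genes tested), for 69 in macrophages and not in monocytes (9.74%), for 88 in monocytes and not in macrophages (7.87%), and for 60 in neither (79.3%), each share being that of all genes tested. Over all genes tested, whatever the other cell type did, genotypes stood apart in 12.8% in macrophages and in 11.0% in monocytes. With limma's adjusted p in each cell type in place of no overlap, the counts were 2, 19, 71, 67 and 92. In their own tests the macrophages had 717 called genes of 12568 (5.7%) and the monocytes 427 of 12867 (3.32%). The first was 458 without wild-type mouse 2. The second was 282, 263 and 280 without wild-type mouse 2, 3 or 4, and 237 and 243 without knockout mouse 8 or 9. Which cell type had more called genes depended on the fit. A joint fit of all 16 libraries, with the mouse as a random effect, called 527 in macrophages and 1017 in monocytes.

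The effect on the targeted gene itself was not called different between the cell types on the log2 scale. In macrophages C3 stood at 3262, 4668, 4830 and 3272 normalized reads in wild-type mice and at 1076, 1368, 1390 and 1102 in knockout mice. In monocytes the values were 16132, 14608, 15269 and 14625 against 4624, 5204, 5137 and 4735. In normalized reads the fall was thus larger in monocytes, which held more C3 in wild type. Knockout libraries lay below wild-type libraries in both cell types, and reads remained in all 8 of them, or 30.8% of wild type in the macrophage means and 32.5% in the monocyte means. The exons behind the remaining reads cannot be seen in gene totals, so the C3 values leave unsaid how much intact transcript there was. The difference of effects for C3 was 0.09 ± 0.10 (SE; adjusted p = 0.775). The receptor genes C3ar1 and C5ar1 gave -0.05 (adjusted p = 0.861) and -0.03 (0.902). Itgam and Itgax, which encode CD11b and CD11c, gave 0.19 (0.247) and 0.30 (0.196). Adgre1, which encodes the F4/80 used for sorting, gave -0.25 (0.182), and -0.39 without mice 7 and 8, where it passed (adjusted p = 0.0393). Ly6c2, a gene of the other sorting marker, gave 0.01 (0.993). None of the 7 genes passed with all mice.

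Il1r2 passed in both cell types in opposite directions. It encodes the decoy receptor that binds interleukin-1 without signalling. In macrophages it stood at 244, 408, 205 and 188 normalized reads in wild-type mice and at 825, 1031, 833 and 777 in knockout mice. In monocytes it stood at 2632, 5714, 3976 and 2880 in wild-type mice and at 1538, 1949, 1325 and 843 in knockout mice. All knockout macrophages were above all wild-type macrophages, and all knockout monocytes were below all wild-type monocytes. The mean rose 3.31-fold in macrophages (log2 effect 1.16 ± 0.14, SE; adjusted p = 0.000998) and was 2.69-fold lower in monocytes (-1.07 ± 0.23; adjusted p = 0.045). The difference of effects was 2.23 ± 0.15 (adjusted p = 7.12e-05), and it passed in each of 19 alternative fits. Il1r2 lies on chromosome 1, 40074079 to 40125231 (GRCm38).

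Cyfip2, a subunit of the WAVE complex that drives actin branching, was the other gene that passed in both cell types in opposite directions. Its macrophage values were 1365, 1277, 1718 and 1362 in wild-type mice and 2048, 1939, 2332 and 1982 in knockout mice. Its monocyte values were 2151, 2363, 2608 and 2453 against 1792, 1927, 1577 and 1406. Wild-type monocytes thus held more Cyfip2 than macrophages of the same mouse, and in knockout mice the order was turned in all 4. The effects were 0.38 (adjusted p = 0.0058) and -0.37 (0.0177), with a difference of 0.76 ± 0.09 (adjusted p = 0.00195). Plscr1, which encodes a phospholipid scramblase, rose in macrophages from 1124 ± 33.2 to 1552 ± 123 and stood in monocytes at 1141 ± 144 and 850 ± 102, without overlap in either (difference 0.63, adjusted p = 0.00355). Wild-type mice thus had near-equal Plscr1 in both cell types and knockout mice did not.

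Plxdc1, a plexin domain protein, went the other way. Macrophages held 412, 404, 386 and 458 normalized reads in wild-type mice and 132, 223, 148 and 121 in knockout mice. Monocytes held 346, 177, 317 and 310 against 426, 347, 394 and 469. Knockout macrophages were all lower and knockout monocytes all higher than wild type, and the difference of effects was -1.38 ± 0.20 (adjusted p = 0.00437). Lyz1, a lysozyme gene, stood at 348 ± 77.0 and 183 ± 31.3 in macrophages and at 128 ± 27.7 and 352 ± 248 in monocytes, again without overlap (difference -1.51, adjusted p = 0.0206). The remaining members of the 9 were Fam234b (-0.59), Dpp7 (-0.30), Ift57 (0.44) and Rfc1 (0.42). Cyfip2, Plscr1 and these 4 fall outside the rule for named genes and were chosen after their values were seen. Cyfip2, Plscr1 and Plxdc1 passed in all 19 alternative fits. Lyz1 is nearly identical to its neighbour Lyz2, so the split of reads between them is uncertain; its call was lost without wild-type mouse 1, 2 or 4 or knockout mouse 8 (adjusted p = 0.0534, 0.0751, 0.0731 and 0.0598). Dpp7 was lost without any mouse but knockout mouse 7 (adjusted p = 0.0795 to 0.153), Ift57 without any but knockout mouse 6 (0.0601 to 0.127), and Rfc1 without wild-type mouse 1, 2 or 4 or knockout mouse 9 (0.0691 to 0.0947).

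**Figure D2:**
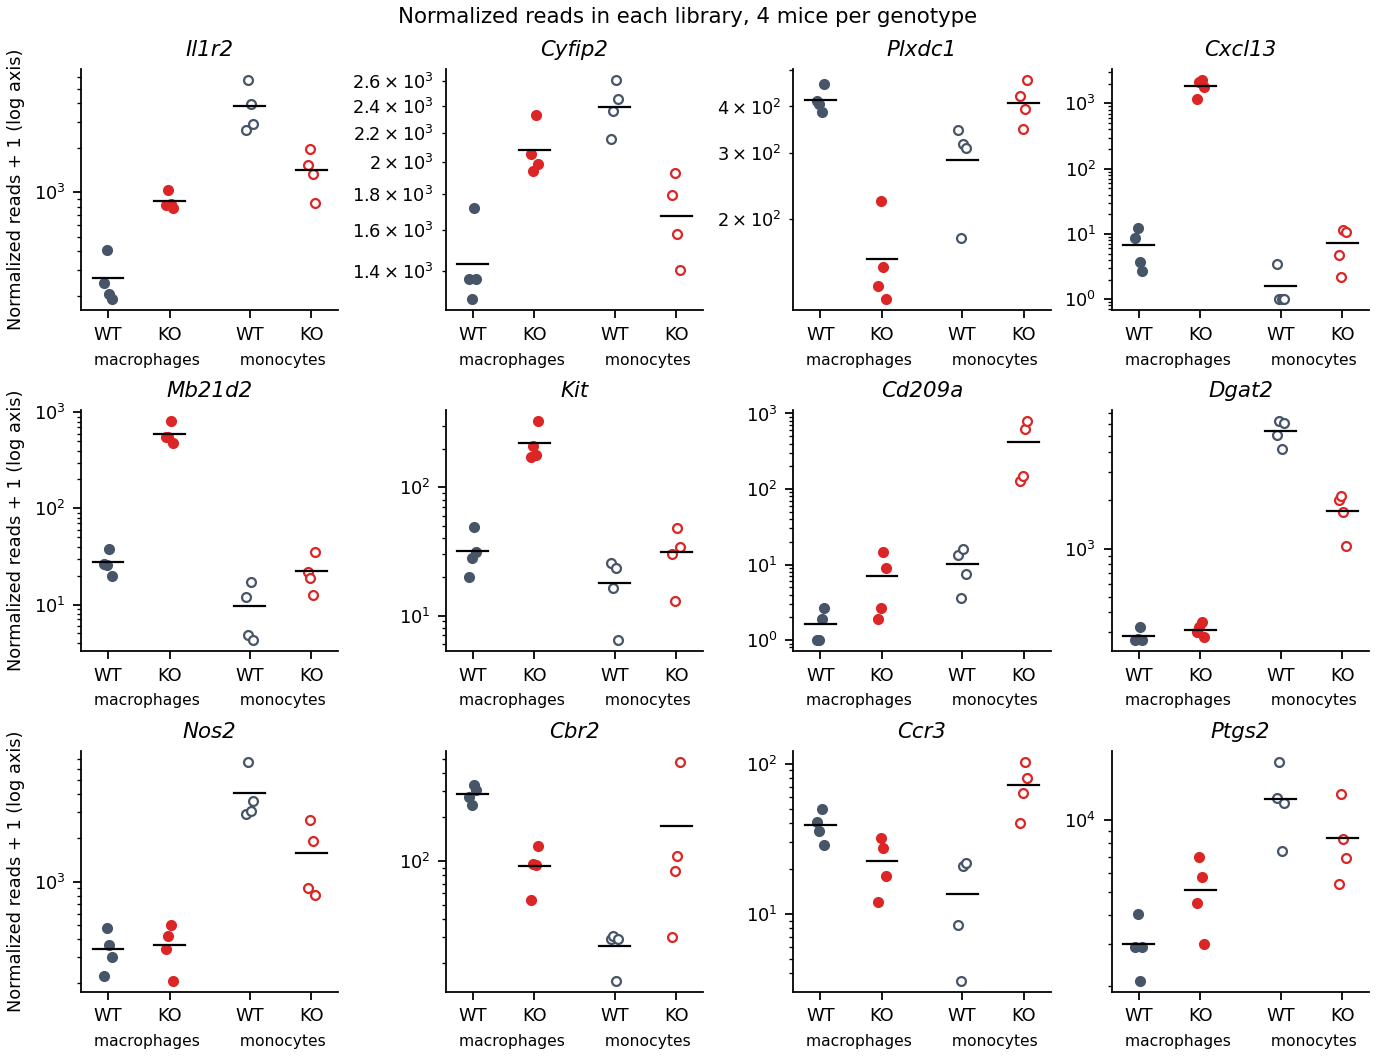
Normalized reads plus 1 on log axes for 12 genes, 1 point per library, with filled points for macrophages, open points for monocytes, grey for wild type (WT), red for knockout (KO) and bars at the means. Il1r2 and Cyfip2 rise in macrophages and fall in monocytes, and Cxcl13 reaches 1179 to 2263 reads only in knockout macrophages.

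Further genes had opposite signs with a clear change in at most 1 cell type. Cbr2, a carbonyl reductase, fell in macrophages from 275, 240, 330 and 305 to 53.3, 94.2, 93.2 and 126 normalized reads. In monocytes it stood at 28.4, 29.5, 14.1 and 28.3 in wild-type mice and at 29.1, 84.4, 107 and 474 in knockout mice. Knockout mouse 9 held most of the monocyte mean and mouse 6 was within the wild-type range, so the monocyte genotypes overlapped. The difference was -2.55 ± 0.37 (adjusted p = 0.00827, and 0.0603 without the mouse term). Ccr3, the eotaxin receptor, was higher in all knockout monocytes (39.5, 62.7, 101 and 79.6) than in wild-type monocytes (7.41, 2.57, 19.7 and 20.7). Its macrophage values overlapped, at 39.9, 34.8, 48.9 and 27.9 against 11.0, 31.1, 26.5 and 16.8. The order of the cell types turned in every mouse (difference -1.99 ± 0.27, adjusted p = 0.00355). Tm4sf19 fell in macrophages from 243 ± 37.6 to 138 ± 14.3 and stood at 36 ± 6.14 and 67.1 ± 20.4 in monocytes (difference -1.09, adjusted p = 0.00821; 0.0735 without mice 7 and 8). Folr2, the folate receptor of tissue macrophages, fell in macrophages from 163 ± 21.8 to 79.5 ± 18.1 and held few reads in monocytes (6.30 ± 3.96 and 18.9 ± 17.1; difference -1.28, adjusted p = 0.0252). Aplnr, the apelin receptor, fell in macrophages from 13 ± 4.08 to 2.12 ± 1.66, against 100 ± 55.4 and 156 ± 48.6 in monocytes (difference -1.35, adjusted p = 0.0362). Ccl7, a monocyte chemoattractant, stood at 4350 ± 644 and 2675 ± 956 in macrophages and at 1369 ± 354 and 2705 ± 1276 in monocytes, passing in neither cell type alone but in the difference (-1.19, adjusted p = 0.0288). The calls of Folr2, Aplnr and Ccl7 were each lost without single mice: Folr2 without wild-type mouse 1 or 4 or knockout mouse 7, 8 or 9 (adjusted p = 0.0503 to 0.084), Aplnr without wild-type mouse 2, 3 or 4 or knockout mouse 6, 7 or 9 (0.0617 to 0.116), Ccl7 without any wild-type mouse or without knockout mouse 6 (0.0503 to 0.0826). These 3 were at 0.121, 0.106 and 0.149 without the mouse term, and with the mouse as a random effect at 0.0633, 0.0564 and 0.0817.

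Cxcl13, the chemokine that draws B cells through CXCR5, showed the largest difference of all genes. In macrophages it was at 7.6, 11.2, 2.77 and 1.69 normalized reads in wild-type mice and at 1179, 2154, 2263 and 1798 in knockout mice. Monocytes held 2.47, 0, 0 and 0 in wild-type mice and 3.76, 1.21, 10.6 and 9.75 in knockout mice. The gene was thus at a few reads everywhere except in knockout macrophages, where it rose 318-fold in the mean. The difference of effects was 5.41 ± 0.25 (adjusted p = 1.87e-07). Summed B and plasma cell markers ran from 148.9 to 219.8 normalized reads in knockout macrophages and from 76.64 to 147.3 in wild-type macrophages. Cxcl13 lies on chromosome 5, 95956951 to 95961068.

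Mb21d2 and Kit also rose in macrophages. Mb21d2 went from 25.6, 24.7, 36.9 and 18.6 to 546, 549, 807 and 481 normalized reads in macrophages (22.5-fold). Its monocyte values overlapped, at 11.1, 3.85, 16 and 3.27 against 20.7, 18.1, 11.6 and 34.1, and the difference was 2.71 ± 0.26 (adjusted p = 0.000393). Kit, the stem cell factor receptor, rose in macrophages from 19.0, 26.9, 48.0 and 30.4 to 173, 209, 179 and 327 (7.14-fold). In monocytes it stood at 17 ± 8.68 and 30.4 ± 14.5, with overlap (difference 1.54, adjusted p = 0.0295). The 6 mast cell and basophil markers found in the files summed to 5.52 normalized reads or fewer in each knockout macrophage library. Neurl1a, a ubiquitin ligase gene, rose in both cell types, 8.53-fold in macrophages (78.8 ± 24.0 to 672 ± 80.3) and 4.53-fold in monocytes (12.7 ± 5.89 to 57.3 ± 12.8), with a difference of 1.19 (adjusted p = 0.00358). Tgfb3, a transforming growth factor ligand, rose in macrophages from 375 ± 70.0 to 805 ± 191 and stood at 133 ± 35.8 and 101 ± 34.7 in monocytes (difference 1.08, adjusted p = 0.041). Epas1, which encodes a hypoxia-inducible factor subunit, had 9.39 ± 5.46 and 49.6 ± 22.5 reads in macrophages and 15.8 ± 8.05 and 9.98 ± 5.75 in monocytes (difference 1.63, adjusted p = 0.029); it was under the level set for named genes and chosen after its values were seen. Mb21d2 passed in all alternative fits, while Neurl1a was lost on log2(normalized reads + 1) (adjusted p = 0.146) and with voom (0.237). Kit was lost without wild-type mouse 1, 2 or 3 or knockout mouse 7 or 9 (0.055 to 0.101), Tgfb3 without wild-type mouse 1, 3 or 4 or knockout mouse 6, 7 or 8 (0.068 to 0.117), Epas1 without wild-type mouse 1, 2 or 4 or knockout mouse 9 (0.0609 to 0.0863).

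Falls that were larger in macrophages included Sema4b, Hdac9, Gsg1 and Spats2. Sema4b, a transmembrane semaphorin, stood at 358, 357, 371 and 360 normalized reads in wild-type macrophages and at 41.4, 40.1, 28.6 and 21.3 in knockout macrophages. In monocytes it stood at 130, 149, 116 and 95.9 against 78.9, 44.6, 32.8 and 72.3. It fell in both cell types without overlap, 11.0-fold in the mean of macrophages and 2.15-fold in that of monocytes. In knockout mice the macrophages therefore lay below the monocytes, the reverse of wild type (difference -1.61 ± 0.21, adjusted p = 0.00347). Hdac9, a class IIa histone deacetylase, went from 756 ± 52.0 to 172 ± 39.4 in macrophages and stood at 101 ± 30.2 and 68.6 ± 38.8 in monocytes (difference -1.20, adjusted p = 0.00355); it was named after its values were seen. Gsg1 fell in macrophages from 86.3 ± 8.01 to 20.1 ± 5.59 against 14.7 ± 6.59 and 22 ± 8.75 in monocytes (difference -1.65, adjusted p = 0.00717). Spats2 fell from 674 ± 58.5 to 180 ± 39.1 against 65.0 ± 39.6 and 49.4 ± 3.39 (difference -1.29, adjusted p = 0.0215). Sema4b, Hdac9 and Gsg1 passed in all 19 alternative fits, and Spats2 was lost without wild-type mouse 2 or knockout mouse 6 or 8 (adjusted p = 0.0709, 0.0537 and 0.0636).

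Dgat2 was among the genes that fell in monocytes and not in macrophages by the test. It encodes an enzyme of the last step of triglyceride synthesis. Wild-type monocytes held 5115, 6218, 4150 and 6100 normalized reads and knockout monocytes 2002, 2119, 1680 and 1029. Macrophages held 268, 272, 325 and 269 against 300, 321, 347 and 278. The monocyte mean was 3.16-fold lower without C3, while the macrophage genotypes overlapped (difference 1.38 ± 0.17, adjusted p = 0.00364). Nucb2, a calcium-binding nucleobindin chosen after its values were seen, fell in both cell types but further in monocytes. It went from 2235 ± 248 to 612 ± 78.5 in monocytes and from 2230 ± 161 to 1755 ± 51.8 in macrophages (difference 1.05 ± 0.07, adjusted p = 6.1e-06). The wild-type means of the cell types were thus within 1 SD of each other and the knockout means were not. Eps8, an actin regulator, fell 5.21-fold in monocytes (5099 ± 873 to 978 ± 351) and 1.83-fold in macrophages (2837 ± 229 to 1550 ± 246; difference 1.10, adjusted p = 0.00821). Cd38, an NAD-consuming ectoenzyme, fell in monocytes from 2346 ± 578 to 519 ± 310 against 2368 ± 387 and 1629 ± 528 in macrophages (difference 1.17, adjusted p = 0.0313). Nos2, the inducible nitric oxide synthase, stood at 2904, 6651, 3044 and 3574 in wild-type monocytes and at 904, 2663, 1900 and 807 in knockout monocytes. Its macrophage values overlapped (341 ± 107 and 367 ± 125), and the difference was 1.16 (adjusted p = 0.0189). Dgat2 and Nucb2 passed in every alternative fit, and Eps8 in all but that without mice 7 and 8 (adjusted p = 0.0801). Cd38 was lost without any wild-type mouse or without knockout mouse 9 (0.073 to 0.108), Nos2 without wild-type mouse 1, 2 or 4 or knockout mouse 8 or 9 (0.0551 to 0.0691). Cd38 was at 0.171 and Nos2 at 0.294 without the mouse term, and with the mouse as a random effect at 0.0949 and 0.183.

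Among genes that rose in monocytes was Cd209a, a C-type lectin used as a marker of monocyte-derived dendritic cells. Wild-type monocytes held 12.3, 2.57, 15 and 6.54 normalized reads and knockout monocytes 128, 147, 621 and 790. Macrophages held 0, 0, 0.92 and 1.69 against 0.92, 1.64, 13.8 and 7.98. Monocytes rose 46.2-fold without overlap, and macrophages had too few reads for a fold (difference -3.13 ± 0.33, adjusted p = 0.000737; 0.0517 with voom). The summed dendritic cell markers spanned 12061 to 13761 among wild-type monocytes and 11679 to 13052 among knockout monocytes, a sum made up mostly of Itgax, Cd86 and Cd24a. Of the smaller members, Mgl2 averaged 13.3 and 73.6 in wild-type and knockout monocytes, Flt3 85.8 and 206, Clec10a 129 and 237, and Batf3 73.7 and 156, none passing in monocytes (adjusted p = 0.0596 to 0.128) or in the difference. Itgax averaged 4421 and 2649 and Cd24a 2050 and 1401, both lower in knockout monocytes. Also lower there were Fscn1 (225 and 150), Ccr7 (68.5 and 45.5), Zbtb46 (48.6 and 40.7) and Dpp4 (531.5 and 505.7). Xcr1 (29 and 57.4) and Clec9a (3.39 and 9.4) were higher. The median monocyte effect of the 15 members was 0.44, and the part of dendritic cells in the Cd209a difference was not tested. Gprc5b, an orphan receptor gene, rose in monocytes from 9.36 ± 4.17 to 112 ± 15.3 and had 1.92 ± 0.23 and 14.2 ± 10.2 reads in macrophages (difference -1.42, adjusted p = 0.0295). With so few macrophage reads its call was lost on log2(normalized reads + 1) (0.32), with voom (0.642) and without wild-type mouse 1, 2 or 4 or knockout mouse 8 or 9 (0.0546 to 0.0833). Of 15 tested granule and neutrophil-like genes, 3 had the higher effect in macrophages (1.26% of all genes) and 1 the lower (0.655%), with a median difference of 0.95 against 0.01 over all genes tested. Wfdc21, Lrg1 and Prtn3, which encode secreted or granule proteins, fell in monocytes. Wfdc21 went from 173, 320, 183 and 227 to 21.6, 42.2, 31.8 and 4.88 normalized reads there, and macrophages held at most 0.95 (difference 2.45, adjusted p = 0.00364; 0.0888 with voom). Lrg1 went from 2466 ± 1146 to 575 ± 250 (difference 2.17, adjusted p = 0.0362) and Prtn3 from 410 ± 29.5 to 175 ± 49.4 (0.95, adjusted p = 0.031). Retnlg, a resistin-like gene of neutrophils, rose in monocytes from 19.8, 6.42, 29.1 and 69.8 to 151, 431, 224 and 283, also in mice 6 and 9, whose libraries held under 2 reads of Ngp (difference -1.89, adjusted p = 0.00355). Its call was lost without the mouse term (0.124) and with the mouse as a random effect (0.0591), as was that of Prtn3 (0.154 and 0.0817). Other neutrophil markers averaged lower in knockout than in wild-type monocytes: S100a8 416.9 and 1782, S100a9 351.5 and 466.2, Cxcr2 31.28 and 118.3, Mmp8 2469 and 3416. Csf3r averaged higher (4597 and 4086), as did Ngp, Ltf and Camp through mice 7 and 8. The part of neutrophils in the rise of Retnlg was not tested. With voom 0 of the 15 passed, and the median difference of the list was 0.255. Over all alternatives this median ran from 0.23, on log2(normalized reads + 1), to 1.18, on log2(normalized reads + 10). Lrg1 was lost without wild-type mouse 2, 3 or 4 or knockout mouse 6, 8 or 9 (0.0666 to 0.116) and Prtn3 without wild-type mouse 2 or 4 or knockout mouse 6, 7 or 8 (0.057 to 0.0975).

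Class II genes rose in both cell types, but by unequal factors. These genes encode the molecules that present antigen to CD4 T cells, and Ciita encodes their master activator, which acts through proteins bound to a conserved promoter module that includes a Y box. Promoter stretches of the chain genes that carry the Y box core are shown for H2-Aa and H2-Eb1, the called genes in which it was found. They are from RefSeq (GRCm38.p6), each of 100 bases ending at the base before the start site, 5′ to 3′ in the direction of the gene, with CTGATTGG in capitals.
H2-Aa: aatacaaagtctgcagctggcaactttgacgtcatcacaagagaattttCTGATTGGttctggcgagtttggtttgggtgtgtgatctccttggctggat
H2-Eb1: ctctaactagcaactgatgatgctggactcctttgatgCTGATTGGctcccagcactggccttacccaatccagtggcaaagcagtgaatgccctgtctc
The first is chr17:34287824-34287923 on the minus strand and the second chr17:34305767-34305866 on the plus strand. On either strand of the 250 bases before the start site, CTGATTGG was present in 3 of the 9 class II genes matched to the table (H2-Aa, H2-Eb1 and H2-Oa) and in 4.43% of all 27025 genes with a promoter there.

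Of 12 tested class II genes, 6 had the lower effect in macrophages (0.655% of all genes) and 0 the higher, with a median difference of -0.40 against 0.01 over all genes tested. The 6 were Ciita, H2-Aa, H2-Ab1, H2-Eb1, H2-DMb1 and Cd74. H2-Aa stood at 57805, 56878, 60583 and 48072 normalized reads in wild-type macrophages and at 138273, 141962, 167442 and 155668 in knockout macrophages. Monocytes held 7561, 5275, 9860 and 9356 against 60216, 51720, 85777 and 77586. Genotypes stood far apart in both cell types, and 2 of the 4 knockout monocyte libraries lay above all wild-type macrophages and the other 2 within their range. H2-Aa rose 2.7-fold in macrophages and 8.59-fold in monocytes (difference -0.99 ± 0.13, adjusted p = 0.00405). The folds were 2.92 and 10.1 for H2-Eb1 (difference -1.01, adjusted p = 0.00364), 2.65 and 8.49 for H2-Ab1 (-1, 0.00717) and 2.34 and 6.31 for Cd74, the invariant chain (-0.85, 0.00845). Ciita went from 1860 ± 166 to 6417 ± 1048 in macrophages and from 603 ± 128 to 5502 ± 1226 in monocytes, so its gap between cell types nearly closed (difference -0.89 ± 0.10, adjusted p = 0.00114). H2-DMb1, a chain of the peptide editor, rose 2.45-fold and 4.79-fold (-0.59, adjusted p = 0.00717). Within the list this was not uniform: the differences of H2-DMa, H2-DMb2, H2-Oa and H2-Ob ran from -0.21 to 0.58 and none passed.

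The direction of this difference depended on the scale. In normalized reads the added amount was larger in macrophages for 5 of the 6 genes. Knockout macrophages gained more H2-Aa than monocytes by 34190 reads, H2-Ab1 by 71147, H2-Eb1 by 59465, H2-DMb1 by 3139 and Cd74 by 136957, each with an exact two-sided permutation p of 0.0286, the smallest that 4 against 4 mice allow. Ciita kept its direction, with 342 reads fewer gained in macrophages. Ciita, H2-Aa and H2-Eb1 passed on the log2 scale in all 19 alternative fits, and 4 to 6 members of the list passed over these fits.

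**Figure D3:**
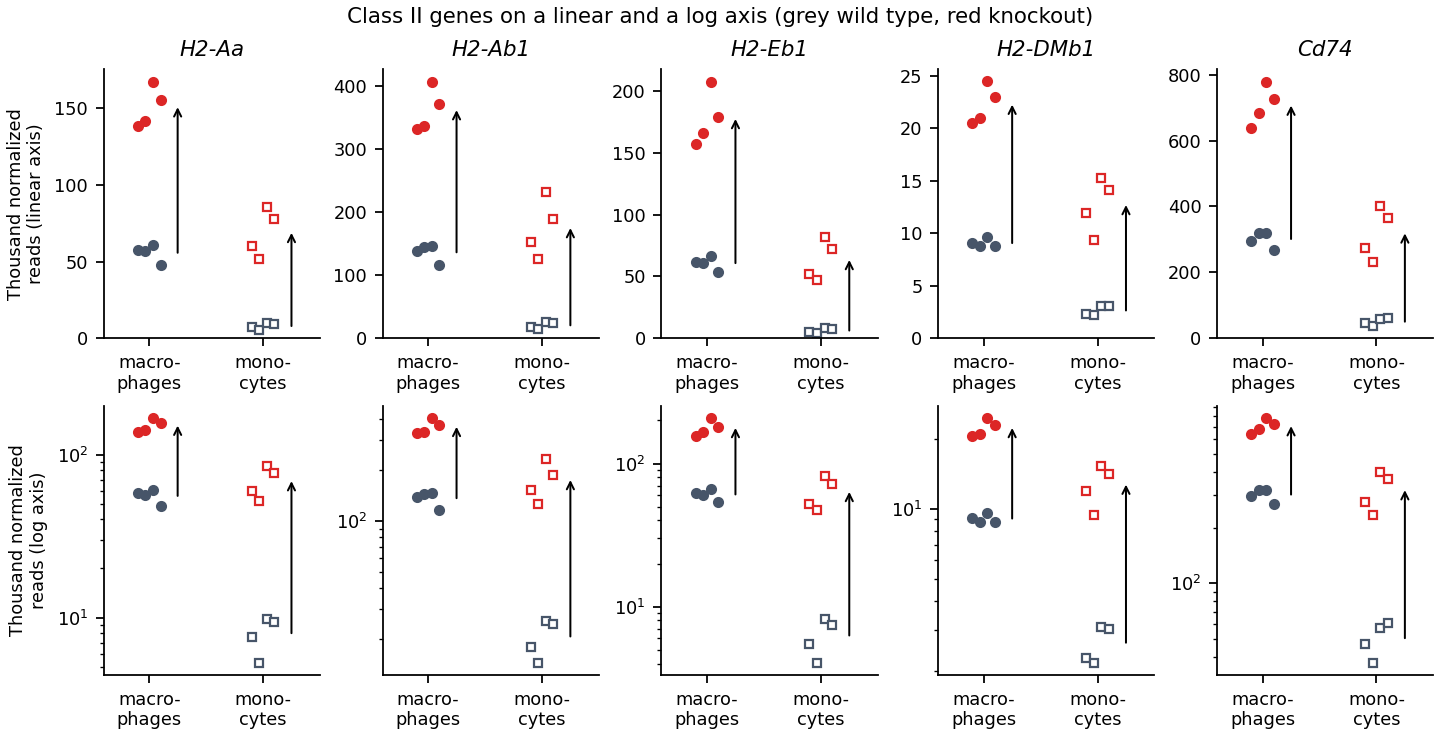
Normalized reads (in units of 1000) of 5 class II genes in each library, on linear axes above and log axes below, with grey for wild type, red for knockout, circles for macrophages, squares for monocytes and arrows from the wild-type to the knockout mean. The arrows of macrophages are longer on the linear axes and those of monocytes on the log axes, as in H2-Aa with 2.7-fold against 8.59-fold.

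Type I interferon-stimulated genes had lower effects in macrophages. Interferon signalling drives these antiviral genes through the factor ISGF3, which binds an interferon-stimulated response element. The promoter of Ifit3 is shown because the gene is among those that passed and holds 2 matches to the element, written as GAAA, any 2 bases and GAAA, and here found on the other strand (RefSeq, GRCm38.p6, plus strand, matches in capitals).
Ifit3: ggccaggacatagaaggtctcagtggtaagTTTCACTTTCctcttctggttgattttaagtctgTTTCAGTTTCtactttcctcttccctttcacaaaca
This is chr19:34583343-34583442, and the same 100 bases stand before Ifit3b at chr19:34607739-34607838. Ifit3 and Ifit3b are near-identical copies, so the split of reads between them is uncertain. The element was present on either strand of the 250 bases before the start site in 12 of 25 matched genes of the list and in 3.46% of all genes with a promoter.

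Of 34 tested genes of this list, 7 passed with the lower effect in macrophages (0.655% of all genes) and 0 with the higher. The sign was negative in 33 of 34, and the median difference was -0.26, made of -0.25 in macrophages and -0.02 in monocytes. Ifit3 stood at 3581, 3407, 3093 and 2240 normalized reads in wild-type macrophages and at 2109, 2209, 2217 and 1781 in knockout macrophages, without overlap. In monocytes it stood at 9050, 7339, 9420 and 6376 against 10605, 7710, 9443 and 8533, with overlap (difference -0.51, adjusted p = 0.0163). Irf7, the factor that sustains type I interferon production, fell in macrophages from 11011 ± 1934 to 7123 ± 771 and stood at 24690 ± 4418 and 25132 ± 2853 in monocytes (-0.45, adjusted p = 0.0295). Cmpk2 passed in neither cell type alone, at 2674 ± 584 and 2085 ± 285 in macrophages and 9302 ± 1739 and 11676 ± 928 in monocytes (-0.49, adjusted p = 0.00845). Ifit3b fell in macrophages from 698 ± 130 to 409 ± 54.8 (-0.61, adjusted p = 0.012), and the others that passed were Rtp4, Zbp1 and Mx2. These calls needed the mouse term: without it the adjusted p of the 4 genes with values here was 0.134 to 0.205, and no member passed, nor with the mouse as a random effect. Over all alternatives 0 to 11 members passed, and 32 to 34 were negative. Ifit3 was lost without wild-type mouse 1 or knockout mouse 9 (0.058 and 0.0589) and Irf7 without wild-type mouse 1, 2 or 4 or knockout mouse 6, 8 or 9 (0.0575 to 0.098).

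Among 23 tested interferon-gamma-inducible genes, Cxcl9 and Batf2 had the lower effect (0.655% of all genes) and Nos2 the higher (1.26%), and 18 were negative (median -0.26). None passed without the mouse term or with the mouse as a random effect. Cxcl9, a T cell chemoattractant, was higher in all knockout monocytes (2160, 1632, 4768 and 2895 normalized reads) than in wild-type monocytes (1508, 1069, 1056 and 953). Its macrophages held 2054, 2084, 1392 and 1181 against 1244, 1267, 4107 and 1424. Mouse 8 was the highest knockout library in both cell types, and the difference within mice was -0.80 (adjusted p = 0.0152; 0.499 without the mouse term). Batf2, a transcription factor, rose in monocytes from 294 ± 62.1 to 639 ± 180 and stood at 379 ± 49.3 and 416 ± 95.1 in macrophages (-0.70, adjusted p = 0.0136; 0.145 without the mouse term). Cxcl11, of the same chemokine family, rose in both, 5.93-fold in macrophages and 7.23-fold in monocytes, and its difference did not pass (-0.46, adjusted p = 0.202).

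Hypoxia and glycolysis genes stood the other way. These genes are turned on by hypoxia-inducible factors and carry glucose uptake and lactate export. Of 32 tested genes, 9 passed with the higher effect in macrophages (1.26% of all genes) and 0 with the lower, and all 32 differences were positive as deposited, 30 of them with equal medians or quantile normalization. The median difference was 0.20, with -0.06 in macrophages and -0.23 in monocytes. Slc2a1, the glucose transporter GLUT1, stood at 15523, 22179, 16476 and 18377 normalized reads in wild-type monocytes and at 10734, 16319, 14076 and 11562 in knockout monocytes. Macrophages held 4595, 6668, 5305 and 5759 against 5530, 6709, 6957 and 5294. Genotypes overlapped in both cell types, and the gene passed only in the difference (0.44 ± 0.06, adjusted p = 0.00364). Slc16a3, a lactate exporter, fell in monocytes from 19021 ± 2704 to 11824 ± 1515 without overlap (0.39, adjusted p = 0.00405). Ndrg1 stood at 5387 ± 1066 and 3357 ± 1037 in monocytes (0.64, adjusted p = 0.00355), and Ero1l, an oxidase of disulfide formation, at 17650 ± 2544 and 10355 ± 3449 (0.53, adjusted p = 0.00845). The others that passed were Gpi1, Egln3, Vegfa, Ddit4 and Bhlhe40, with Vegfa at 0.42. The core letters of the hypoxia response element, ACGTG, were found on either strand before the start site in 19 of 29 matched genes and in 18.5% of all genes with a promoter. Without the mouse term the 4 genes with all values given had an adjusted p of 0.19 to 0.236. Over the alternatives 0 to 10 members passed. No member passed without the mouse term or with the mouse as a random effect. Vegfa was at 0.526 and 0.383 in those fits, and was also lost without wild-type mouse 1 or 4 (0.0634 and 0.073).

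Inflammatory genes of the NF-kB group were mixed in sign, with 18 positive and 10 negative differences. Of 28 tested, 6 passed with the higher effect in macrophages (1.26% of all genes) and 0 with the lower (0.655%), and the median was 0.13 against 0.01 over all genes tested. None passed without the mouse term, and 1 with the mouse as a random effect. Il1b, which encodes interleukin-1 beta, stood at 15292, 21691, 13660 and 14680 normalized reads in wild-type macrophages and at 23868, 32899, 32626 and 19325 in knockout macrophages. Monocytes held 78503, 80676, 72840 and 84513 against 68256, 73661, 68851 and 50373. Genotypes overlapped in each cell type by 1 library, and neither effect passed, at 0.49 and -0.22 (adjusted p = 0.0891 and 0.212). The gap between the cell types of a mouse did not overlap between genotypes, and the difference was 0.71 ± 0.09 (adjusted p = 0.00355; 0.0731 without the mouse term). Ptgs2, the prostaglandin synthase COX-2, gave 0.92 (adjusted p = 0.00717), with 2999 ± 788 and 5065 ± 1712 in macrophages and 12319 ± 4170 and 8387 ± 3238 in monocytes. Nlrp3, an inflammasome sensor, gave 0.48 (0.0054), and the NF-kB inhibitors Nfkbia and Nfkbiz gave 0.35 (0.00407) and 0.51 (0.00663); the sixth was Cd14. Of 20 immediate early genes, 15 of them positive, Ier3, Nr4a1 and Nr4a2 passed with the higher effect (1.26% of all genes). The difference was 0.40 for Ier3 (adjusted p = 0.00817) and 0.52 for Nr4a1 (0.0244). Of 22 chemokines Cxcl13 and Cxcl2 passed with the higher effect (1.26% of all genes) and Cxcl9 and Ccl7 with the lower (0.655%). Cxcl2, a neutrophil chemoattractant, gave 0.54 (adjusted p = 0.00717). Without the mouse term none of Il1b, Ptgs2, Nlrp3, Nfkbia, Nfkbiz, Ier3, Nr4a1 and Cxcl2 passed (adjusted p = 0.0731 to 0.645), and Nr4a1 was lost without wild-type mouse 4 or knockout mouse 8 or 9 (0.0795, 0.0617 and 0.0806).

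**Figure D4:**
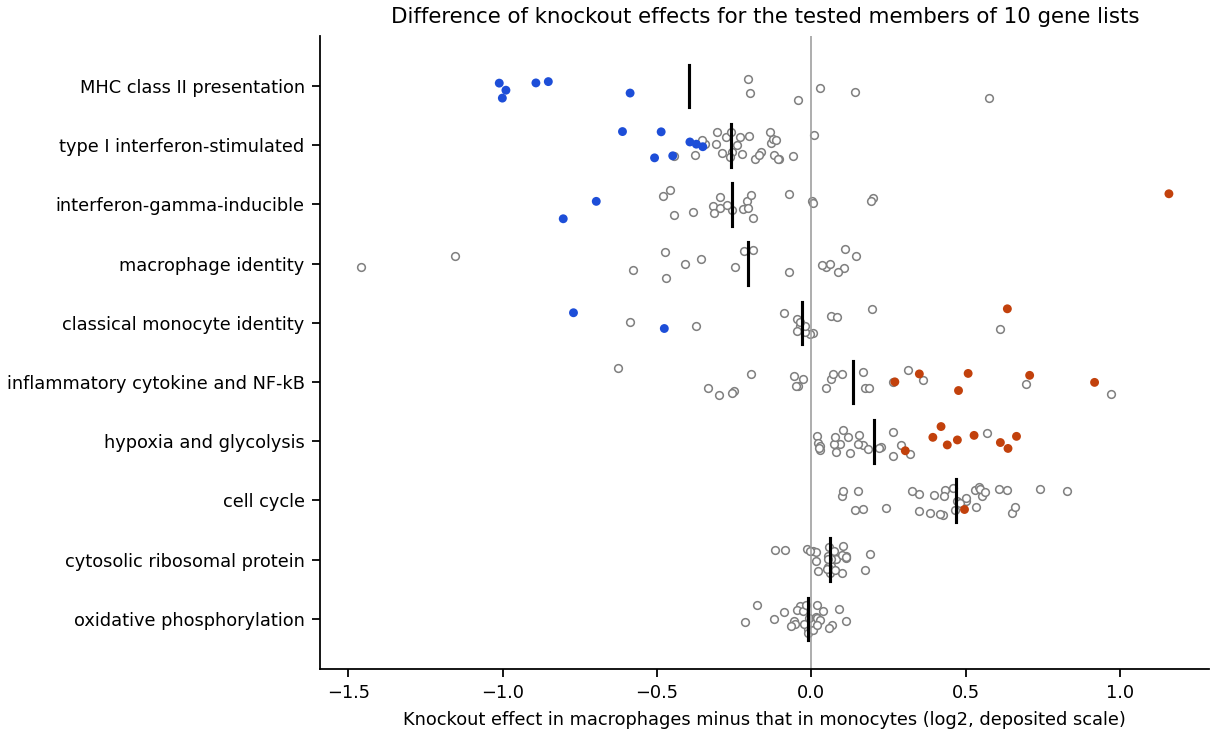
Difference of knockout effects (log2, deposited scale) for the tested members of 10 gene lists, 1 point per gene, with filled points for genes that passed (orange higher, blue lower) and bars at the medians; vertical scatter within a list has no meaning. The medians run from -0.40 in the class II list to 0.47 in the cell cycle list.

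Matrix and protease genes went in both directions. Of 26 tested, Mmp12, Mmp13, Thbs1 and Vegfa passed with the higher effect (4, against 1.26% of all genes) and Plau, Mmp19 and Igf1 with the lower (3, against 0.655%). Without the mouse term, and also with the mouse as a random effect, 0 passed with the higher effect and 2 with the lower. Plau, the urokinase plasminogen activator, rose in monocytes from 138, 181, 113 and 104 to 350, 351, 390 and 339 normalized reads. Macrophages held 399, 421, 376 and 406 against 512, 448, 465 and 433. The monocyte genotypes stood 2.67-fold apart and the macrophage genotypes 1.16-fold, each without overlap, and the difference of -0.82 ± 0.12 (adjusted p = 0.00364) passed in every alternative fit. Igf1, a growth factor made by macrophages, fell in macrophages from 122 ± 35.7 to 53.4 ± 15.8 against 12.7 ± 5.00 and 22.2 ± 3.58 in monocytes (-1.23, adjusted p = 0.0197; 0.0528 to 0.073 without wild-type mouse 2, 3 or 4 or knockout mouse 9). In the lipid list, Fabp5, a fatty acid chaperone, fell in macrophages from 483 ± 38.9 to 320 ± 51.9 and stood at 847 ± 140 and 1049 ± 192 in monocytes (-0.63, adjusted p = 0.0135). Lpin1, a phosphatidate phosphatase, fell 9.94-fold in macrophages and 4.66-fold in monocytes (-0.64, adjusted p = 0.0374), and in normalized reads the fall was larger in monocytes by 33.3 (exact permutation p = 0.114). Without knockout mouse 8 or 9 or any wild-type mouse the call of Lpin1 was lost (0.0617 to 0.109), as without the mouse term (0.17) and with the mouse as a random effect (0.0927). Fabp5 was lost without the mouse term (0.0642).

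Cell cycle genes had positive differences throughout, with 1 call. All 34 were positive as deposited and in each alternative fit, with a median of 0.47 (0.04 in macrophages and -0.42 in monocytes) against 0.01 over all genes tested. At an unadjusted p under 0.05 there were 23 of the 34, against 1853 of all 13134 genes tested. After adjustment only Bub1b, a spindle checkpoint kinase, passed, with the higher effect (1.26% of all genes). It stood at 552, 406, 628 and 421 normalized reads in wild-type monocytes and at 298.7, 317, 296 and 278 in knockout monocytes. Its macrophages held 2009 ± 169 and 2055 ± 352 (difference 0.49, adjusted p = 0.034). The helicase subunits Mcm2, Mcm7 and Mcm5 gave 0.50, 0.55 and 0.46 (adjusted p = 0.0669, 0.0699 and 0.0884) and passed without wild-type mouse 2 (0.0208, 0.0251 and 0.0297). Bub1b was lost without wild-type mouse 1, 2 or 3 or knockout mouse 6, 7 or 9 (0.0689 to 0.103), without the mouse term (0.131) and with the mouse as a random effect (0.0706). Over the alternatives 0 to 6 of the 34 genes passed.

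Identity genes passed in the classical monocyte list and not in the macrophage list. Of 18 macrophage identity genes 0 passed by limma (1.91% of all genes) and 0 by voom. By limma 9 of the 18 were at an unadjusted p under 0.05, against 1853 of all 13134 genes tested. Mrc1, the mannose receptor, gave the most negative difference of this list (-1.46, adjusted p = 0.159), with 6063 ± 354 and 4610 ± 389 in macrophages and 329 ± 120 and 1383 ± 1062 in monocytes. Of 18 classical monocyte genes Thbs1 had the higher effect (1.26% of all genes) and Cd177 and Lyz2 the lower (0.655%). Lyz2, the main lysozyme of myeloid cells, stood at 447058 ± 45332 and 374635 ± 39399 in macrophages and at 457232 ± 36704 and 608261 ± 76942 in monocytes (-0.48, adjusted p = 0.00834). Cd177, a surface protein of neutrophils and monocytes, rose in monocytes from 2462 ± 201 to 4788 ± 1125, and macrophages held under 2 reads on average (-0.77, adjusted p = 0.0215; 0.709 on log2(normalized reads + 1)). By limma or voom 0 passed of 18 complement, 22 class I, 20 cholesterol synthesis, 28 ribosomal protein and 26 oxidative phosphorylation genes. At an unadjusted p under 0.05 by limma were 6, 2, 1, 1 and 1 of them. Against 1853 of all 13134 genes tested, the complement share was higher and the others were lower. Cd177 was lost without wild-type mouse 1, 2 or 4 or knockout mouse 8 (0.0598 to 0.073). Lyz2 was lost without the mouse term (adjusted p = 0.0504), without the filter on low values (0.0655) and without trend or robust estimation (0.0806). Without the mouse term 0 of the classical monocyte genes passed with the higher effect and 1 with the lower.

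Some called genes lay close together. Of windows of 5 Mb, 1 on chromosome 6 held 7: Hebp1, Gm19434, Fam234b, Gsg1, Emp1, Arhgdib and Eps8. Hebp1, a heme-binding protein gene at 135137522 to 135198022, rose in both cell types, from 111 ± 21.8 to 2401 ± 162 in macrophages and from 20.6 ± 7.39 to 1751 ± 443 in monocytes (difference -0.77, adjusted p = 0.0114). Emp1, a membrane protein gene, rose 1.52-fold in macrophages (3999 ± 477 to 6079 ± 705) and 3.39-fold in monocytes (4215 ± 819 to 14279 ± 2818; -0.85, adjusted p = 0.00355). The genes of this window thus differed in direction: Hebp1 and Emp1 rose in both cell types, Eps8 fell in both, and Gsg1 fell in macrophages. In the annotation Gm19434 lies within Hebp1, and Fam234b (135197977 to 135244955) overlaps both Hebp1 and Gsg1 (135237326 to 135254351), and the library kit does not mark strand, so reads of these neighbours cannot be told apart where they overlap. A window on chromosome 17 held 5, Daxx and the class II genes H2-DMb1, H2-Ab1, H2-Aa and H2-Eb1. Both windows, Hebp1 and Emp1 were named after their values were seen. In normalized reads Hebp1 also reversed, with 559.9 reads more gained in macrophages (exact permutation p = 0.143). Tspan13, a tetraspanin gene outside them that was likewise chosen after its values were seen, rose 3.06-fold in macrophages and 1.42-fold in monocytes (0.66, adjusted p = 0.00575), while in normalized reads the gain was larger in monocytes by 301 (exact permutation p = 0.114).

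Part of these calls needed the mice whose monocyte libraries held Ngp. Without mice 7 and 8 the calls of further genes named here were lost, with adjusted p of 0.144 for Spats2, 0.125 for Folr2, 0.181 for Tgfb3, 0.0585 for Kit, 0.109 for Lrg1, 0.123 for Dpp7, 0.169 for Ift57, 0.0581 for Hebp1 and Epas1, 0.068 for Lpin1, 0.0544 for Tspan13 and Fabp5, 0.0899 for Cd177, 0.169 for Prtn3, 0.112 for Nr4a1 and 0.0766 for Vegfa. That fit has fewer mice, and the part of fewer mice against that of these libraries was not tested. Without them the class II, interferon, hypoxia, NF-kB and cell cycle lists had 6, 11, 7, 5 and 4 calls.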

How the data were processed

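RNA from 5 ng per sorted sample was made into libraries with a SMART-Seq v4 kit, which does not mark strand. The submitters' processing notes name STAR 2.7.2b, DESeq2, bcl2fastq 2.19.0.316 and the GRCm38 build, without saying what each was used for. The authors' matrix, as deposited, holds log2 values of 30819 genes for each of the 16 libraries, whose transform is not named and which follows a regularized logarithm. Per the file headers, the authors' comparison tables hold base means (a signal, mean reads over size factors), log2 fold changes, a test score and p-values; no fold change, score or p-value of theirs is printed.

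Reads per gene were recovered from the log2 values and the base means deposited by the authors: 82.58% of values lay within 0.05 of a whole read over 20443 genes, and recomputed base means were within 1% for 99.74%. Where this share is lower (45.56% above a base mean of 1000) reads are rounded estimates.

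Genes were tested where the deposited value, taken out of log2, reached 10 in at least 4 libraries. These values are not the recovered normalized reads. The test was limma 3.58.1 (R 4.3.3, trend and robust) on the deposited log2 values. It had mouse as a fixed block, 6 residual degrees of freedom and Benjamini-Hochberg adjustment. Each cell type's own effect came from its 8 libraries. The titles give the mouse of each library, so the pairing is by animal; deviations of both libraries of a mouse correlated at 0.0306 to 0.417. The mice are separate animals. Single genes were also tested by exact two-sided permutation of 4 against 4 mice. Scripts were tested on simulated data. Alternatives were no block, a random block, other filters, other scalings, voom on recovered reads, log2(normalized reads + 1) or + 10, no trend, and each mouse left out; voom used a trimmed-mean scaling computed here in place of TMM. Leaving out mice 7 and 8 together was chosen after seeing the data.

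Named genes were a fixed set around C3, the 12 called genes with the largest differences in each direction, up to 10 of opposite effect, and 2 to 4 per list. The 12 and the 10 were taken from called genes with no overlap. These also had a group mean of 50 or more in deposited values taken out of log2. The members and lists were chosen with earlier results of these data known. Genes were placed with GENCODE vM21, which matched 99.802% of them. Python 3.11.15, pandas 2.3.3, numpy 2.4.6, scipy 1.17.1 and matplotlib 3.10.9 were used.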

Additional observations from a re-analysis of the deposited data

Results flagged for a closer look

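Of 332 groups of 4 libraries of the named genes, 17 held a library far from the other 3 by Dixon's criterion at the 95% level, where chance gives about 1 in 20. These normalized read values were 4115 for Itgax in knockout macrophages of mouse 8, 3564 for Itgax in wild-type monocytes of mouse 1, 14.09 for Cbr2 in wild-type monocytes of mouse 3, 136.1 for Lyz1 in knockout macrophages of mouse 6, 177.1 for Plxdc1 in wild-type monocytes of mouse 2 and 325 for Dgat2 in wild-type macrophages of mouse 3. In the same way, 3387 for Ccl7 in wild-type macrophages of mouse 3, 13054 for Cmpk2 in knockout monocytes of mouse 6, 505.4 for Ifit3b in wild-type macrophages of mouse 4, 4107 for Cxcl9 in knockout macrophages of mouse 8, 1758 for Bub1b in wild-type macrophages of mouse 2 and 15241 for Nfkbia in wild-type macrophages of mouse 2 stood apart. The remaining values were 23789 for Nfkbia in wild-type monocytes of mouse 2, 1585 for Nlrp3 in knockout macrophages of mouse 9, 11560 for Nfkbiz in wild-type macrophages of mouse 2, 315638 for Lyz2 in knockout macrophages of mouse 6 and 77.01 for Igf1 in knockout macrophages of mouse 7.

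For 71 named genes the knockout effect differed between the cell types by the limma test of the difference itself. The effect (log2, macrophages minus monocytes) was higher in macrophages for Cxcl13 (5.41), Mb21d2 (2.7), Wfdc21 (2.45), Il1r2 (2.23), Lrg1 (2.17), Epas1 (1.63), Kit (1.54), Dgat2 (1.38), Neurl1a (1.18), Cd38 (1.17), Nos2 (1.16) and Eps8 (1.1). Smaller positive differences were those of Tgfb3 (1.08), Nucb2 (1.05), Prtn3 (0.951), Ptgs2 (0.917), Cyfip2 (0.759), Il1b (0.707), Tspan13 (0.663), Ndrg1 (0.637), Plscr1 (0.634), Cxcl2 (0.543), Ero1l (0.527) and Nr4a1 (0.518). Smaller positive differences were those of Nfkbiz (0.508), Bub1b (0.493), Nlrp3 (0.477), Ift57 (0.444), Slc2a1 (0.44), Rfc1 (0.422), Vegfa (0.42), Ier3 (0.402), Slc16a3 (0.393) and Nfkbia (0.35). It was lower in macrophages for Cd209a (-3.13), Cbr2 (-2.55), Ccr3 (-1.98), Retnlg (-1.89), Gsg1 (-1.65), Sema4b (-1.61), Lyz1 (-1.51), Gprc5b (-1.42), Plxdc1 (-1.38), Aplnr (-1.35), Spats2 (-1.29) and Folr2 (-1.28). Smaller negative differences were those of Igf1 (-1.23), Hdac9 (-1.2), Ccl7 (-1.19), Tm4sf19 (-1.09), H2-Eb1 (-1.01), H2-Ab1 (-1), H2-Aa (-0.989), Ciita (-0.892), Emp1 (-0.855), Cd74 (-0.852), Plau (-0.818) and Cxcl9 (-0.804). Smaller negative differences were those of Cd177 (-0.771), Hebp1 (-0.77), Batf2 (-0.697), Lpin1 (-0.642), Fabp5 (-0.635), Ifit3b (-0.612), Fam234b (-0.59), H2-DMb1 (-0.587), Ifit3 (-0.508), Cmpk2 (-0.487), Lyz2 (-0.476) and Irf7 (-0.449). Smaller negative differences were those of  and Dpp7 (-0.304).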

How the results depend on the processing

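The number of genes whose effects differed, 251 (165 higher, 86 lower), depended on the mouse term and on the estimate of spread. Without the replicate block it was 81 (47 and 34), of which 78 were among the 251, and with the block as a random effect 139, with 80 higher. It was 71 (40 and 31) without trend or robust estimation and 87 (58 and 29) at an adjusted p under 0.01. With 1 mouse left out it ran from 119 to 262, with 80 to 157 higher and 39 to 105 lower. Without mice 7 and 8 it was 190, with 107 higher. Other filters, scalings, pseudocounts and voom gave 199 to 254 genes, with 133 higher and 97 lower under equal medians and 140 and 107 under quantile normalization. No called gene changed direction in any log2 fit, 97 passed without each mouse in turn and 30 in all 19 alternative fits. On the linear scale 8 genes reversed: H2-Eb1 59465, H2-Aa 34190, H2-Ab1 71147, H2-DMb1 3139, Cd74 136957, Hebp1 559.9, Lpin1 33.29 and Tspan13 -301.1 normalized reads. With 1 mouse left out the own test of macrophages called 458 to 656 genes and that of monocytes 237 to 459. A joint fit of all 16 libraries with the replicate block as a random effect called 527 in macrophages and 1017 in monocytes. The order of the cell types was thus turned against the own tests with all mice (717 and 427). By adjusted p in place of no overlap, 2 genes were opposite in both cell types and 92 changed in neither. The cause of these shifts was not tested. Values under about 10 reads rest on few counts, and the deposited scale draws them together.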
